A study of Mus musculus with 2 samples.

Results

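Plvap, Egfl7, Pecam1, Kdr, Flt1, Cdh5, Emcn, Esam, Eng and Tek, 10 genes that mark the endothelium of blood vessels, were followed in long-read RNA sequencing libraries of the mouse adrenal gland. They were taken by gene name from the deposited transcript tables and are 10 of the 18053 known genes with at least 1 read in either library. All 10 had reads in both libraries. The study holds 2 libraries of total RNA from whole adrenal glands of male mice of the cross B6CASTF1/J, 4 days old, labelled as biological replicates 1 and 2 of a single group. The tissue descriptions name different males, while the library descriptions and the donor identifier name the same, so the libraries may not come from separate animals. No allele, agent or comparison group is given, and the libraries were set against each other as replicate 1 over replicate 2.

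Hormone-producing cells of the adrenal gland lie against sinusoids. A sinusoid is a wide capillary whose endothelial cells are thin and pierced by fenestrae, pores through which cholesterol-bearing lipoproteins enter and hormones leave. The fenestrae are spanned by diaphragms built from the protein of Plvap. Endothelial cells are kept in this state largely by VEGF, which steroid-producing and chromaffin cells release and which acts through the receptors coded by Kdr and Flt1, while Cdh5, Pecam1 and Esam code for proteins that join neighbouring endothelial cells.

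The libraries held 688436 mouse reads in replicate 1 and 810818 in replicate 2, with spike-in RNA left out. Levels are in CPM, which divides what a gene has by the mouse total of its library. A single read was worth 1.45 CPM in replicate 1 and 1.23 CPM in replicate 2, and 3 reads, the most that a count of 0 allows, 4.36 and 3.70 CPM. The level of 8 adrenal cortex markers, led by Cyp21a1, Cyp11a1, Hsd3b1 and Cyp11b1, added up to 46610 CPM in replicate 1, against 31590 CPM in replicate 2, and that of 9 chromaffin cell markers, led by Chga, Chgb, Th and Scg2, was 14570 CPM in replicate 1, against 11110 CPM in replicate 2. Of these 8 and 9 genes, 1 was called by the test described below, Cyp11b2 of aldosterone synthesis, with 515 reads in replicate 1 and 258 in replicate 2 (log2 ratio 1.23). Replicate 2 also held 22490 CPM of 12 hepatocyte genes, against 540.4 CPM in replicate 1, and all 12 were called lower in replicate 1 by the same test, namely Trf, Ahsg, Alb, Apoa1, Kng1, Afp, Ttr, Apoa2, Fgg, Hpx, Fgb and Serpina1a. Beside them, S100a8 and S100a9, genes of neutrophils, had 6 and 7 reads in replicate 1 and 70 and 64 in replicate 2. Whole tissue was read, so the reads do not show which vessels of the gland they come from, and fewer endothelial cells and less RNA per endothelial cell cannot be told apart.

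Together the 10 endothelial genes held 706 reads in replicate 1 and 769 in replicate 2, which came to 1026 and 948.4 CPM, with a mean of 987 ± 54.5 CPM (SD, n = 2). This was 0.103% of the mouse reads of replicate 1 and 0.0948% of those of replicate 2. The reads were spread unevenly. Plvap alone took 43.1% of them, and Plvap, Egfl7 and Eng together 1171 of 1475 reads, or 79.4%. At the other end, Kdr, Tek, Cdh5 and Flt1 had between 3 and 19 reads in a library, so that their levels rest on few molecules.

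**Figure D1:**
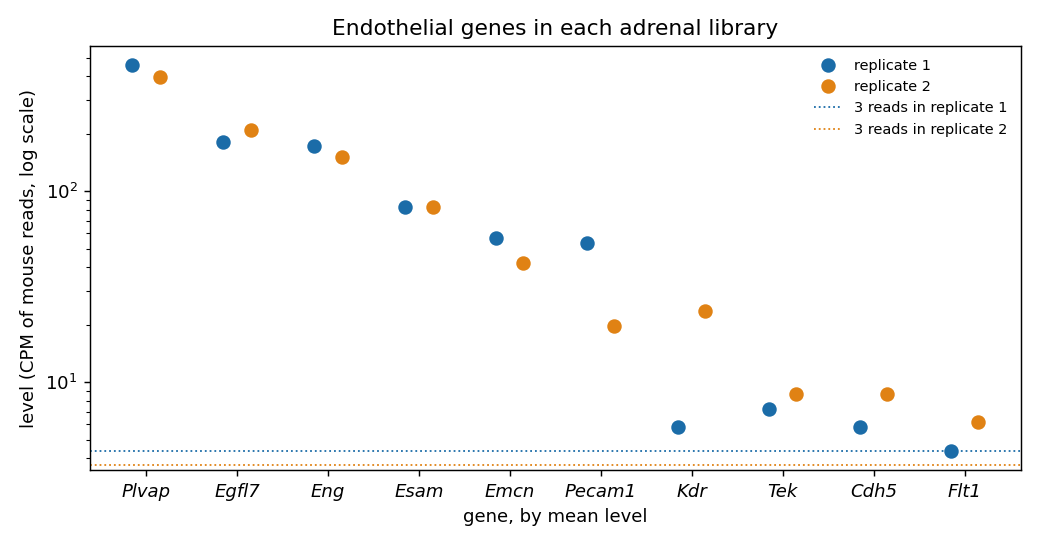
Level of each endothelial gene in replicate 1 (left point) and replicate 2 (right point), in CPM of mouse reads on a log scale; dotted lines mark the level of 3 reads in each library. Plvap stands highest at 456.1 and 397.1 CPM and Flt1 lowest at 4.36 and 6.17 CPM, and the points of Pecam1 and Kdr lie farthest apart.

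Plvap (ENSMUSG00000034845.6, chromosome 8, 71497765 to 71511752, minus strand, mm10), the diaphragm gene, had 314 reads in replicate 1 and 322 in replicate 2. Replicate 1 gave 456.1 CPM and replicate 2 gave 397.1 CPM, for a mean of 427 ± 41.7 CPM (SD, n = 2), which placed it at rank 342 among all known genes. Replicate 1 was thus slightly the higher, by a ratio of 1.15 with a 95% interval of 0.980 to 1.35 from counting error. Nearly all of its complete reads followed 1 form. The known transcript ENSMUST00000048452.5, which has 6 exons and 1987 bases, took 304 of 308 complete reads (98.7%) in replicate 1 and 289 of 293 (98.6%) in replicate 2. Exons 2 and 3 were skipped together in 0 of 305 reads in replicate 1 and 3 of 292 in replicate 2. Reads that stopped short of the full exon chain, called incomplete splice matches, numbered 3 in replicate 1 and 29 in replicate 2.

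Egfl7 (ENSMUSG00000026921.18, chromosome 2, 26580014 to 26593120, plus strand), which codes for a protein secreted by endothelial cells into the matrix of growing vessels, had 125 reads in replicate 1 and 170 in replicate 2. Replicate 1 gave 181.6 CPM and replicate 2 gave 209.7 CPM, which averaged 196 ± 19.9 CPM (SD, n = 2). Replicate 2 was the higher here, by less than the counting interval of the ratio, which ran from 0.682 to 1.10. The gene is also the host of miR-126a, a microRNA of endothelial cells known to dampen inhibitors of VEGF signalling. The hairpin lies in the intron of 600 bases after exon 7 of the leading transcript ENSMUST00000102907.11, at chr2:26591357-26591429, 293 bases past that exon. Its sequence (RefSeq, GRCm38.p6, plus strand) is shown because the forms of Egfl7 described next differ around it. Capitals mark the mature 3p strand in the hairpin, and the seed, bases 2 to 8, in the mature microRNA at chr2:26591402-26591423.
miR-126a hairpin: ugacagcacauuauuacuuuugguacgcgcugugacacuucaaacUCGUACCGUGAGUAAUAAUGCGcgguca
mmu-miR-126a-3p: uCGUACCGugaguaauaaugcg

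Egfl7 had the most transcript models of the 10 genes, a count that also depends on how many reads a gene has. Its complete reads fell into 47 models over both libraries, against 1 to 13 models for each of the others and 5 for Plvap, which had more reads, and the leading one, with 10 exons, took 35 of 111 complete reads (31.5%) in replicate 1 and 51 of 148 (34.5%) in replicate 2. Over the 2457 genes with at least 50 complete reads in each library, the leading model took a median of 91.9%, with quartiles of 78.4% and 96.9%. Pecam1 had 12 models from fewer complete reads, 32 in replicate 1 and 13 in replicate 2. Its leading model took 28.9% over both libraries, a smaller share than the 33.2% of Egfl7. The Egfl7 model with the next most reads, ENSMUST00000172683.1, is a single exon of 536 bases at the 3′ end. It is annotated as a retained intron and had 16 reads in replicate 1 and 29 in replicate 2. It is followed by an unannotated 10-exon model, with 12 reads in replicate 1 and 9 in replicate 2.

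That new model uses a splice acceptor 99 bases before annotated exon 8. Of the reads that covered the end of exon 7 and went on, 69 of 104 (66.3%) in replicate 1 and 92 of 127 (72.4%) in replicate 2 joined exon 7 to exon 8 as annotated. The new acceptor was used by 15 of 104 (14.4%, 95% Wilson interval 8.94 to 22.4%) in replicate 1 and 15 of 127 (11.8%, 7.29 to 18.6%) in replicate 2. Exon 8 was skipped by 10 reads (9.62%) in replicate 1 and 14 (11%) in replicate 2, and the whole intron with the hairpin was kept in 5 reads (4.81%) in replicate 1 and 3 (2.36%) in replicate 2. As many reads, 5 in replicate 1 and 3 in replicate 2, used some other acceptor. Both libraries therefore held each form at shares whose intervals overlap. Of the 30 reads with the new acceptor, 27 spliced from the first exon of the main start. Likewise 28 of the 30 went on from exon 8 to exon 9, and the 30 fell into 8 different models. The added stretch at chr2:26591565-26591663 begins 135 bases past the miR-126a hairpin and directly after an AG. It and exon 8 at chr2:26591664-26591728 are shown (mm10, plus strand, read from GENCODE transcripts); capitals mark the in-frame stop codon.
Egfl7 new stretch: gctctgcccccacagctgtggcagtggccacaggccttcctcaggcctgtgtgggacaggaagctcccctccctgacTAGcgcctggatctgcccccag
Egfl7 exon 8: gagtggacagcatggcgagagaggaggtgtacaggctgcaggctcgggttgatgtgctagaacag

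In the frame of the leading transcript, which carries 1 base over from exon 7, the new stretch held 1 stop codon, after 77 of its 99 bases. Exon 8 is 65 bases long, which is not a multiple of 3, so its skipping shifts the frame of what follows. Farther on, the donors of exon 9 were compared among reads that spliced it to exon 10. Reads of the single-exon model at the 3′ end run through this intron unspliced and were left out. The longest donor was used by 85 of 98 spliced reads (86.7%) in replicate 1 and 117 of 129 (90.7%) in replicate 2. Donors 31 and 39 bases shorter took 5 and 8 reads in replicate 1 and 7 and 5 in replicate 2.

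**Figure D2:**
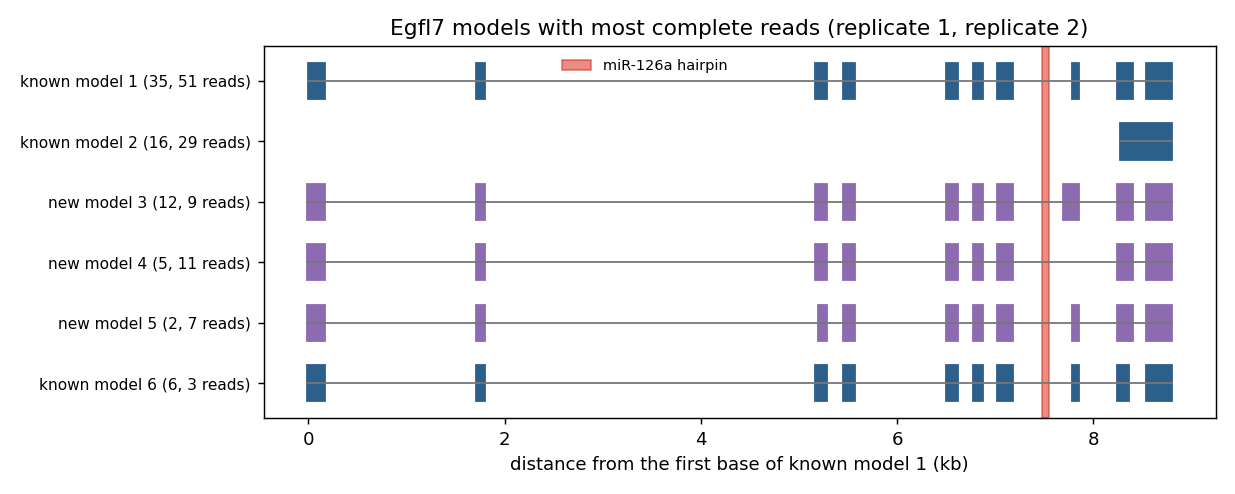
Exons (boxes) of the 6 Egfl7 models with most complete reads, placed by distance in kb from the first base of the leading transcript (known model 1); reads in replicate 1 and replicate 2 stand in brackets, blue boxes are annotated models and purple boxes new ones, and the red band is the miR-126a hairpin. New model 3 has a longer exon just past the hairpin, and new model 4 lacks that exon.

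Egfl7 has 3 annotated starts, and reads spliced from the first exon of each. A read was assigned to a start by the donor of that first exon, not by its own 5′ end. The middle start, that of the leading transcript, was used by 81 of 94 reads (86.2%) in replicate 1 and 107 of 119 (89.9%) in replicate 2. The upstream start had 8 reads in replicate 1 and 6 in replicate 2, and the downstream start 5 in replicate 1 and 6 in replicate 2, so the middle start led by far in both libraries. The RefSeq windows from 250 bases before to 50 bases after each start (GRCm38.p6, plus strand) are given so that the starts can be compared; their start positions lie within 27 bases of those of the GENCODE first exons. Capitals mark CCGGAA or CAGGAA on either strand, core letters bound by ETS factors, which are known regulators of endothelial genes.
Egfl7 upstream start (chr2:26580833-26581132): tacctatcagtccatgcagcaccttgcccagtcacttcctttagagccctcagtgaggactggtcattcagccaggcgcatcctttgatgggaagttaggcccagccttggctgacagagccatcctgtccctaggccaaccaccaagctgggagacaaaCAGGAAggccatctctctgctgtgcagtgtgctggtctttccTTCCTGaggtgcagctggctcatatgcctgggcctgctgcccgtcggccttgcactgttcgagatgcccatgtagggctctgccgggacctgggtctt
Egfl7 middle start (chr2:26583615-26583914): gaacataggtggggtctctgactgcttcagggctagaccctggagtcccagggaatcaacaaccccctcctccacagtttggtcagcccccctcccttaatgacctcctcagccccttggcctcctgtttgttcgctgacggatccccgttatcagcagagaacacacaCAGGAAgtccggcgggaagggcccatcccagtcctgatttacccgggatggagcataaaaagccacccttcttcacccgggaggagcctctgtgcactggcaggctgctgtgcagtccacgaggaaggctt
Egfl7 downstream start (chr2:26586386-26586685): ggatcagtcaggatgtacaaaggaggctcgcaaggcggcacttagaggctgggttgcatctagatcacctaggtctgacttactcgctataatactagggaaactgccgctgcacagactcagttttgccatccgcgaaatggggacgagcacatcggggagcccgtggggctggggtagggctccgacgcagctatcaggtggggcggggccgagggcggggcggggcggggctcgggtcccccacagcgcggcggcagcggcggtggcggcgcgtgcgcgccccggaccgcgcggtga

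The letters occurred 2 times at the upstream start, 1 time at the middle start and 0 times at the downstream start, which has the highest GC content of the 3 windows at 67.3%, against 58.3% upstream and 59.0% in the middle. Windows were found for 6 of the 10 genes (Egfl7, Emcn, Eng, Flt1, Kdr and Tek), and 6 of their 8 windows held the letters, as did 41.4% of all 32851 windows in the table. These are matches of letters and not observed binding sites.

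Among the genes of cell junctions and the cell surface, Esam (chromosome 9), an adhesion molecule of endothelial tight junctions, had 57 reads in replicate 1 and 67 in replicate 2, or 82.8 and 82.6 CPM, with a mean of 82.7 ± 0.116 CPM (SD, n = 2). Its 7-exon form ENSMUST00000002011.13 took 46 of 50 complete reads (92.0%) in replicate 1 and 53 of 57 (93.0%) in replicate 2. Emcn (chromosome 3), a sialomucin of veins and capillaries, had 39 reads in replicate 1 and 34 in replicate 2, at 56.7 and 41.9 CPM. An exon of 39 bases, exon 5 of ENSMUST00000122064.7, was included in 32 of 33 reads in replicate 1 and 29 of 31 in replicate 2, and the length of the exon keeps the frame. Cdh5 (chromosome 8), the VE-cadherin that holds endothelial cells together, had 4 reads in replicate 1 and 7 in replicate 2, at 5.81 and 8.63 CPM. Of these, 1 read in replicate 1 and 4 in replicate 2 matched the 12-exon transcript ENSMUST00000034339.9, and 3 reads in each library had a single exon.

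Pecam1 (ENSMUSG00000020717.19, chromosome 11, minus strand), whose protein links endothelial cells and is also found on platelets and leukocytes, had 37 reads in replicate 1 and 16 in replicate 2. Replicate 1 had 53.8 CPM, against 19.7 CPM in replicate 2, a mean of 36.7 ± 24.1 CPM (SD, n = 2), and replicate 1 was higher beyond counting error, with a ratio of 2.72 and a 95% interval of 1.48 to 5.24. To compare the libraries, the reads of every gene were set against the remaining mouse reads in Fisher's exact test, two-sided. A gene was called when its Benjamini-Hochberg adjusted p lay under 0.05 and its CPM, with 0.5 added, differed by 1 or more on the log2 scale. Pecam1 was the only endothelial gene called, at a log2 ratio of 1.42 and an adjusted p of 0.00965 over 8276 genes by Fisher's exact test. Of the 10 genes, 7 had the 20 reads needed for the test and 1 was called, where 3.23% of all genes tested were called, 0.967% higher in replicate 1 and 2.26% lower. The test knows counting error alone and compares 2 libraries, not animals or treatments.

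The 11 genes of platelets and leukocytes, of which 8 had reads, came to 82.8 CPM in replicate 1, against 263.9 CPM in replicate 2, with Ptprc, Gp9 and Cd3e at 0 in both libraries. Most of that gap lay in S100a8 and S100a9, both called, which together came to 18.9 CPM in replicate 1, against 165.3 CPM in replicate 2. Without them, a sum chosen after seeing the data, the other 9 genes came to 63.9 CPM in replicate 1, against 98.7 CPM in replicate 2. Pf4, a platelet gene, had 35 reads in replicate 1 and 60 in replicate 2, and Cd79a, a gene of B cells, 4 and 8. The part of blood cells in the Pecam1 level was not tested.

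Pecam1 reads were divided among forms that differ at exons 14 and 15, numbered as in ENSMUST00000106796.8, which code for part of the cytoplasmic tail. Exon 14 is known to hold the codon of a tyrosine of an inhibitory signalling motif. Both exons were present in 8 of 32 reads (25%) in replicate 1 and 3 of 14 (21.4%) in replicate 2. Exon 15 was skipped alone in 10 reads (31.2%) in replicate 1 and 4 (28.6%) in replicate 2, and exons 14 and 15 together in 13 (40.6%) in replicate 1 and 6 (42.9%) in replicate 2. No form held a majority of the reads in either library, although with 14 reads the intervals of replicate 2 are wide (21.4 to 67.4% for the joint skipping). The matching known transcripts were ENSMUST00000103069.9 without either exon (10 and 3 complete reads in replicate 1 and replicate 2), ENSMUST00000080853.10 with exon 14 (9 and 3) and ENSMUST00000106796.8 with both (8 and 1). Exon 14 (chr11:106671742-106671798) has 57 bases and exon 15 (chr11:106662002-106662024) 23 bases, so leaving out exon 14 keeps the frame and leaving out exon 15 shifts it. Capitals mark the tyrosine codon of each exon in the frame of ENSMUST00000106796.8 (mm10, minus strand, read from GENCODE transcripts).
Pecam1 exon 14: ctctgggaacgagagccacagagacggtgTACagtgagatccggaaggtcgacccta
Pecam1 exon 15: atctcatggaaaacagaTACtct

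**Figure D3:**
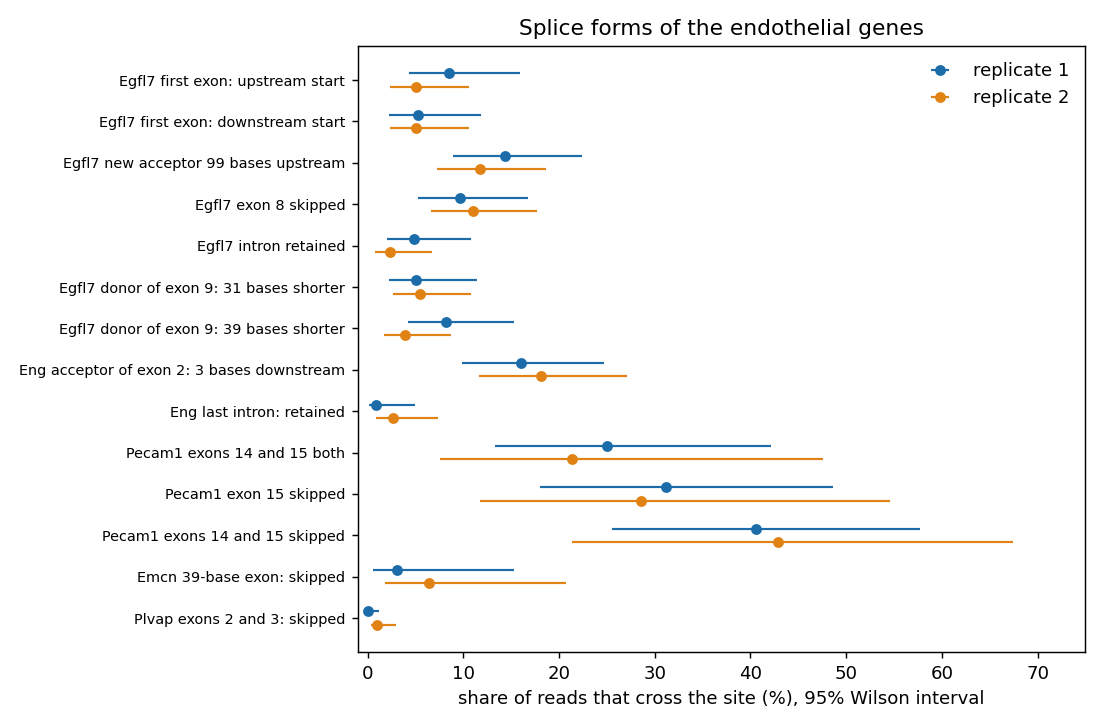
Share of reads with each splice form, in percent of the reads that cross the site, in replicate 1 (upper point) and replicate 2 (lower point), with 95% Wilson intervals. For the donors of Egfl7 exon 9, only spliced reads are counted. The Pecam1 form without exons 14 and 15 reaches 40.6 and 42.9%, and the form without exon 15 alone 31.2 and 28.6%. The downstream Eng and new Egfl7 acceptors lie between 11.8 and 18.1%, and the intervals of the libraries overlap.

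Eng (ENSMUSG00000026814.16, chromosome 2, plus strand) codes for endoglin, a coreceptor of endothelial cells for BMP9 and related ligands. It had 118 reads in replicate 1 and 122 in replicate 2, at 171.4 and 150.5 CPM, with a mean of 161 ± 14.8 CPM (SD, n = 2). The ratio of 1.14 had an interval of 0.877 to 1.48, which holds equal levels. ENSMUST00000009705.13, with 15 exons and 3422 bases, took 77 of 95 complete reads (81.1%) in replicate 1 and 71 of 96 (74.0%) in replicate 2, and ENSMUST00000167841.7, also with 15 exons, took 13 in replicate 1 and 16 in replicate 2. At the start of exon 2, where 2 acceptors lie side by side, they differ by 3 bases. ENSMUST00000167841.7 has 3403 bases in all, so the annotated transcripts differ elsewhere as well. The downstream acceptor was used by 15 of 94 reads (16%, 95% Wilson interval 9.92 to 24.7%) in replicate 1 and 17 of 94 (18.1%, 11.6 to 27.1%) in replicate 2. The join of exons 1 and 2 is shown (mm10, plus strand, from chr2:32647024 on the exon 1 side), with the 3 bases of the first acceptor in capitals.
Eng longer join: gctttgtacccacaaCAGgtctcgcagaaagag
Eng shorter join: gctttgtacccacaagtctcgcagaaagag

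The last intron of Eng, which is kept in a known short form of endoglin, was retained in 1 of 111 reads in replicate 1 and 3 of 115 in replicate 2. Incomplete splice matches made up 22 of 118 Eng reads in replicate 1 and 26 of 122 in replicate 2.

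The receptor tyrosine kinases had few reads. Kdr (ENSMUSG00000062960.10, chromosome 5, minus strand), the main signalling receptor for VEGF, had 4 reads in replicate 1 and 19 in replicate 2, at 5.81 and 23.4 CPM, with a mean of 14.6 ± 12.5 CPM (SD, n = 2). The ratio of 0.248 had an interval of 0.0613 to 0.746, and the log2 ratio was −1.92. With an adjusted p of 0.0655 by Fisher's exact test over all genes Kdr was not called, and it passed when DESeq2's size factors scaled the libraries (log2 ratio −2.03). Of its reads, 2 in replicate 1 and 7 in replicate 2 were genomic, that is, not fitted to any splice pattern of the gene. Its transcript ENSMUST00000113516.1, with 30 exons and 5924 bases, was read complete 1 time in replicate 1 and 5 times in replicate 2. The Kdr difference ran in the direction of the hepatocyte genes, while genes of liver sinusoid endothelium came to 58.1 CPM in replicate 1, against 53.0 CPM in replicate 2. In that list 9 of 10 genes had reads, in both directions. Stab1 had 15 reads in replicate 1 and 20 in replicate 2, Lyve1 5 and 8, and Clec4g and Stab2 each 1 and 3. Fcgr2b had 1 read in replicate 1 and 4 in replicate 2, and Wnt2 0 and 2. In the other direction, Oit3 had 7 reads in replicate 1 and 2 in replicate 2, Mrc1 5 and 1 and Gpr182 5 and 0. Dnase1l3 was at 0 in both, and the only gene tested, Stab1, was not called. Their part in the Kdr level was not tested.

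Flt1 (chromosome 5, minus strand), the other VEGF receptor, is known to be made as a membrane receptor and as a soluble form that ends early and traps the ligand. It had 3 reads in replicate 1 and 5 in replicate 2, at 4.36 and 6.17 CPM, close to the level of 3 reads. Of these 8 reads, 7 ended as the soluble form ENSMUST00000110529.5, with 13 exons, 3 of 3 in replicate 1 and 4 of 5 in replicate 2. A single read, in replicate 2, went from exon 13 to exon 14 of the membrane form, and over both libraries the soluble share was 87.5% with a 95% Wilson interval of 52.9 to 97.8%. The coding bases of that form past the shared part of exon 13 (chr5:147639130-147639224, mm10, minus strand) are given with the stop codon in capitals.
Flt1 soluble coding end: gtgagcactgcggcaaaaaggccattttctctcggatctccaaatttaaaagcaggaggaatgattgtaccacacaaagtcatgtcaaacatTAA

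Tek (chromosome 4, plus strand), the receptor for angiopoietins that steadies mature vessels, had 5 reads in replicate 1 and 7 in replicate 2, at 7.26 and 8.63 CPM. All 12 reads spanned the first and the last intron of the 23-exon transcript ENSMUST00000102798.7, which is 4654 bases long. Exon 7, 129 bases that code for an EGF-like repeat of the receptor and hold 8 cysteine codons, was skipped in 0 of 5 reads in replicate 1 and 3 of 7 in replicate 2. Exon 14 ended 3 bases earlier, as in ENSMUST00000071168.5, in 3 of 5 reads in replicate 1 and 0 of 7 in replicate 2. With so few reads the intervals of the libraries overlap for exon 7 (0 to 43.4% in replicate 1 and 15.8 to 75% in replicate 2) and for exon 14 (23.1 to 88.2% in replicate 1 and 0 to 35.4% in replicate 2). The exon 7 at chr4:94811288-94811416 is shown with its in-frame cysteine codons in capitals, and the end of exon 14 at chr4:94851860-94851877 with the 3 bases that the shorter form leaves out in capitals.
Tek exon 7: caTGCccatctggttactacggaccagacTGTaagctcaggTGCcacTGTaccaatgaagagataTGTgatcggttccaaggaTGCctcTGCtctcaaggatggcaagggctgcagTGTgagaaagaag
Tek end of exon 14: caggcattccagaacGTG

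By mean level the order was Plvap, Egfl7, Eng, Esam, Emcn, Pecam1, Kdr, Tek, Cdh5 and Flt1. The values of neighbours did not overlap from Plvap down to Emcn, and overlapped for every neighbouring pair from Emcn to Flt1. In long reads a molecule gives a read whatever its length, but long molecules are read whole less often. The order was also set per kilobase of the leading known transcript, for description alone. Dividing by length lowers long genes further, so it cannot correct or check a loss of long molecules. On that scale Plvap had 214.7 CPM per kb, Egfl7 143, Eng 47.0 and Esam 44.4. Emcn had 19.1 CPM per kb, Pecam1 11.4, Kdr 2.47, Cdh5 1.81, Tek 1.71 and Flt1 0.836. Thus 8 of the 10 genes kept their rank, and Tek and Cdh5 changed places.

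Across the 7 genes tested the median log2 ratio was 0.19, against 0.10 over all 8276 genes tested. Pecam1 and Kdr were the 2 genes with an unadjusted p under 0.05 in Fisher's exact test, as were 1586 of all genes. The log2 ratios of Plvap (0.20), Eng (0.19), Emcn (0.43), Egfl7 (−0.21) and Esam (0.00284) had adjusted p-values between 0.356 and 1. When DESeq2's size factors scaled the libraries, the median over all genes moved to −0.0076 and the share of called genes that were higher in replicate 1 became 17.6%, against 30% with CPM.

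**Figure D4:**
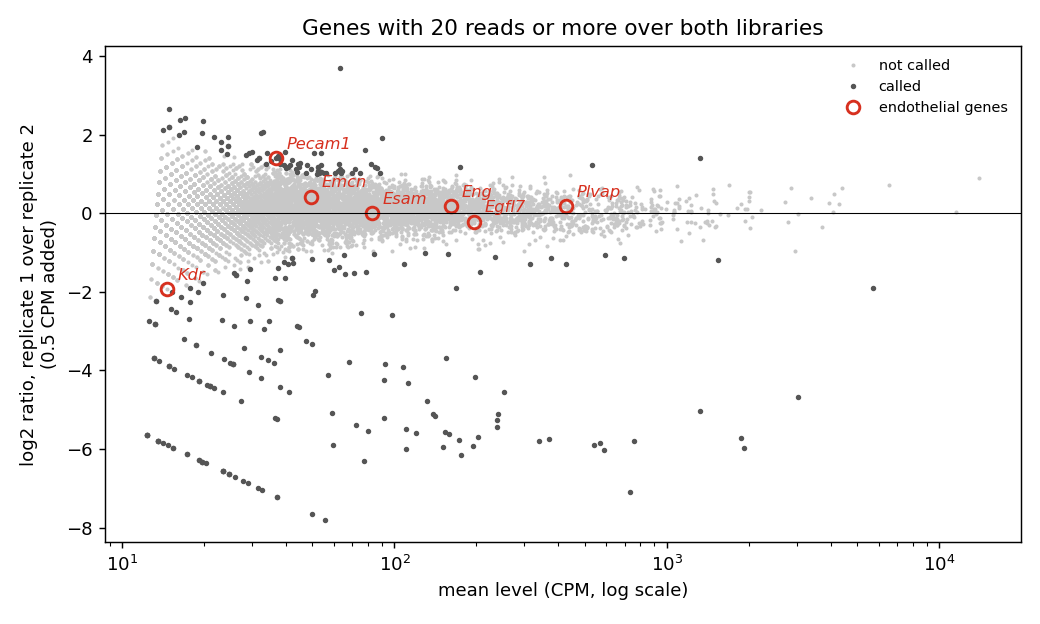
Log2 ratio of each tested gene, replicate 1 over replicate 2 with 0.5 CPM added, against its mean level in CPM on a log scale; dark points are called genes and red circles the 7 endothelial genes tested. Pecam1 at 1.42 is the only circle on a called point, and Kdr at −1.92 lies among genes with few reads.

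Known transcripts took 580 of 706 reads of the 10 genes (82.2%) in replicate 1 and 581 of 769 (75.6%) in replicate 2. Of all mouse reads they took 74.2% in replicate 1 and 70.1% in replicate 2. These totals are unlike, since new loci held 3.81% and 5.37% of all mouse reads and genes chosen by name cannot include them. Plvap alone also gave 304 of the 580 known reads in replicate 1 and 289 of the 581 in replicate 2. The 10 genes are therefore not shown to be read more completely than other genes. Egfl7 stood lowest among the genes with over 100 reads, at 56.0% in replicate 1 and 54.7% in replicate 2, and Plvap highest, at 96.8% in replicate 1 and 89.8% in replicate 2. New combinations of known splice sites held 23 Egfl7 reads in replicate 1 and 40 in replicate 2, and models with a new splice site 18 in replicate 1 and 15 in replicate 2. Over all genes, the known share was 87.3% in replicate 1 and 87.2% in replicate 2 for genes whose leading transcript was under 1000 bases, and 65.1% in replicate 1 and 58.9% in replicate 2 at 5000 bases and more, the class of Kdr and Flt1. Usage of the leading model could be compared between the libraries for Plvap, Egfl7, Eng and Esam. None of the 4 was called (Fisher's exact test, adjusted p of 1 for each, 0 with an unadjusted p under 0.05), where 0.407% of the 2457 genes tested were called. The differences were 0.0665 points for Plvap, −2.93 for Egfl7, 7.09 for Eng and −0.982 for Esam, replicate 1 minus replicate 2.

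**Figure D5:**
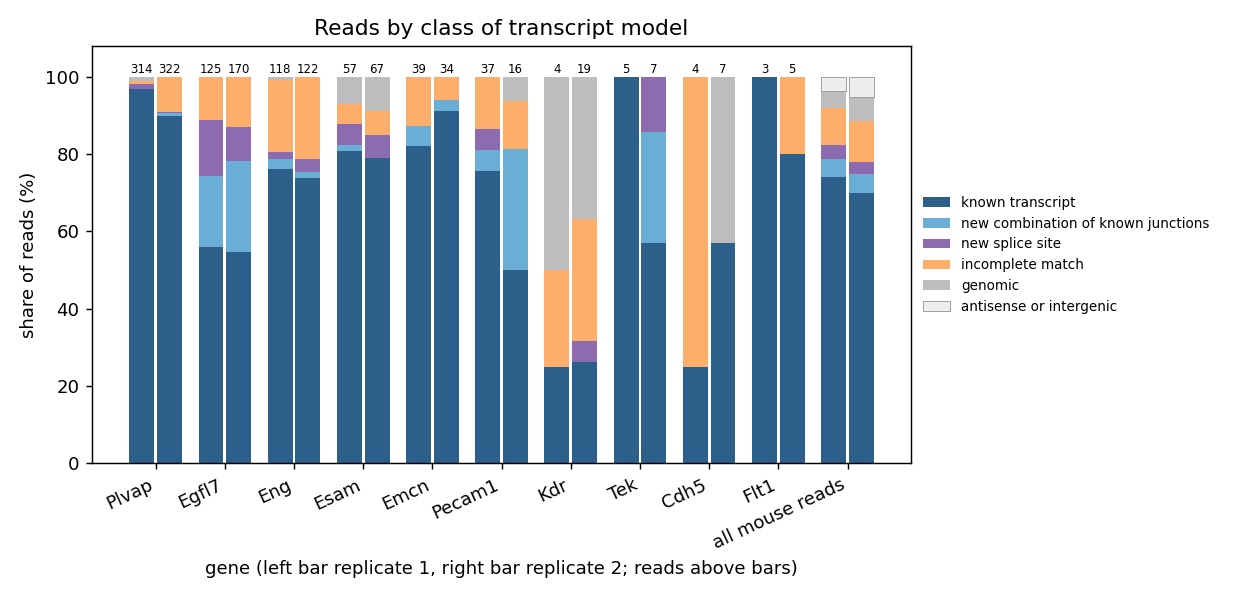
Share of the reads of each endothelial gene by class of transcript model, in percent, for replicate 1 (left bar) and replicate 2 (right bar), with the reads above the bars and all mouse reads at the right end. Egfl7 has the largest part in new combinations and new splice sites among genes with over 100 reads, and incomplete and genomic reads take most of Kdr.

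The pathways around these 10 genes were read as well. Where 3.23% of all tested genes were called, a count of 0 in lists this short is near the background, and nothing is read from it. In VEGF and angiopoietin signalling, 13 of 13 listed genes had reads and 0 of the 6 tested were called. The ligand Vegfa led with 148 reads in replicate 1 and 139 in replicate 2, a mean of 193 ± 30.8 CPM (SD, n = 2), and Vegfb followed with 99 and 86 reads. Tie1, the partner of Tek, had 38 reads in replicate 1 and 56 in replicate 2, and the coreceptor Nrp1 41 and 48. The angiopoietins were scarce, Angpt1 with 0 reads in replicate 1 and 3 in replicate 2 and Angpt2 with 2 and 5.

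Other endothelial surface and junction genes reached 841 CPM in replicate 1, against 839 CPM in replicate 2, a mean of 840 ± 1.68 CPM (SD, n = 2), with 17 of 18 genes read, Jam2 at 0 and 0 of 12 tested genes called. Cldn5, the claudin of endothelial tight junctions, was the highest at 193 reads in replicate 1 and 251 in replicate 2. Cd34 (84 and 77 reads), Cav1 of caveolae (61 and 80) the peptide receptor Aplnr (52 and 54) and the receptor partner Ramp2 (43 and 63) came next, in replicate 1 and replicate 2.

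In the BMP9 and endoglin pathway 12 of 13 genes had reads and 0 of 8 tested were called. Its targets Id3 and Id1 had 125 and 49 reads in replicate 1 and 122 and 57 in replicate 2, the mediator Smad4 63 and 57 and the inhibitor Smad6 38 and 57. Acvrl1, the receptor that works with endoglin, had 15 reads in replicate 1 and 16 in replicate 2, while its ligands Gdf2 and Bmp10 had 0 and 0 in replicate 1 and 1 and 0 in replicate 2. Many of these genes are expressed in other cells of the gland as well.

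Of the endothelial transcription factors, 15 of 16 had reads and 0 of 6 tested were called. Gata2, which chromaffin cells also express, had 91 reads in replicate 1 and 109 in replicate 2, Klf2, a gene of flow response, 48 and 49, Sox18 30 and 18 and Sox17 19 and 21. Notch and arterial genes came to 204.8 CPM in replicate 1, against 246.7 CPM in replicate 2, with 0 of 4 tested genes called. Within that list the venous genes Ephb4 (57 and 74 reads) and Nr2f2 (31 and 46) led, followed by Gja4 (12 and 19), an arterial gene, and Notch4 (12 and 18). Nr2f2 is also made by stromal cells.

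Genes of neighbouring cell types also had reads. Mural cell genes, led by Des, Kcnj8, Acta2 and Mcam, had 271.6 CPM in replicate 1, against 371.2 CPM in replicate 2, lymphatic endothelial genes, led by Lyve1, Ccl21a, Prox1 and Reln, had 37.8 and 29.6 CPM, and macrophage genes, led by C1qa, C1qc, C1qb and Csf1r, had 331.2 and 314.5 CPM. Of these 3 lists 6, 0 and 5 genes were tested and 0 called, which is near the 3.23% of all tested genes. Much of the gap between the mural sums lay in Des, with 113.3 CPM in replicate 1 and 175.1 CPM in replicate 2. Acta2 had 30.5 and 51.8 CPM, while Kcnj8 (47.9 and 45.6 CPM) and Mcam (30.5 and 32.1 CPM) were nearly level. The part of other cells in the Des level was not tested, so the sum is not a measure of mural cells. Clec4f, a gene of liver macrophages, had 0 reads in replicate 1 and 11 in replicate 2.

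Several of the 10 genes overlap others in the annotation. On the same strand, Egfl7 overlaps Gm20532 and Mir126a, and Eng overlaps Gm47291, Gm26236 and Mir1954, so reads there could be counted for either. On the opposite strand, Plvap overlaps Gtpbp3, Egfl7 Agpat2, Cdh5 Gm29682 and Eng Fpgs. There the gene of a read depends on the strand given to its model. Reads in unannotated models antisense to each gene numbered 0 to 6 in replicate 1 and 0 to 8 in replicate 2. None of these shared an intron of the gene. Reads assigned to annotated genes on the opposite strand, such as Agpat2, were not part of this count.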

How the data were processed

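Counts of long reads per transcript model, without normalization, were deposited for each library; per the file headers the models were named by the TALON program. Per the file descriptions deposited with them, they rest on filtered alignments to mm10 with GENCODE mouse release 21. The aligner and filters were not given in the sources used here, nor were tool versions. Model lengths, exon numbers and exon positions were used as deposited, and hold no measurement. Gene levels are sums over all models of the gene, scaled to mouse reads without spike-ins (CPM). Shares have 95% Wilson intervals and ratios exact Clopper-Pearson intervals; both, and the floor of 3 reads, reflect the counting of reads and nothing else, as the reads carry no molecular identifiers and may repeat a molecule. Tests were two-sided Fisher's exact tests with Benjamini-Hochberg adjustment, for genes with 20 reads or more in all and for leading models with at least 50 complete reads (known, new combination or new splice site) in each library, called under an adjusted p of 0.05 where the log2 ratio reached 1 (genes) or the shares differed by 10 points (models). Each test was checked on simulated data with 200 changed genes. Alternatives used edgeR 4.0.16 and DESeq2 1.42.0 for scaling only, in R 4.3.3; other steps used Python 3.11.15 and scipy 1.17.1. Sequences come from GENCODE transcripts and RefSeq tables (GRCm38.p6).

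The 10 genes and all lists were chosen with earlier results of these data known. Named were all 10, the 4 genes of each other list with the most reads and any called gene, and models with at least 10% of complete reads or the 3 with most. Splice sites, further models and other genes with few reads were chosen after their values were seen.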

Additional observations from a re-analysis of the deposited data

How the results depend on the processing

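Of the results that answer a comparison, 23 values under an alternative stayed near the reported value, within the SD of the libraries for a level or share and within 1.5 times for a count. The exceptions were these. The summed level of the 10 genes was 1079 CPM of reads in known models when known models alone were counted, against 987 CPM, a move larger than the SD of 54.5 CPM. DESeq2's size factors called 2 of the 10 genes, Pecam1 and Kdr, and a minimum of 50 reads over both libraries left 161 called genes, since fewer genes were tested, against 267. The log2 ratio of Esam, 0.00284, turned to −0.0575 with TMM scaling by edgeR, −0.107 with DESeq2's size factors and −0.0502 with known models alone, all far inside counting error. Pecam1 stayed called under every scaling, filter and choice of models run. The summed level was 948.4 CPM without replicate 1 and 1026 CPM without replicate 2. The share of reads in known models was 75.6% without replicate 1 and 82.2% without replicate 2, against a mean of 78.9%. With 2 libraries, values with 1 left out always lie within the SD, so their place among the 23 checks nothing. The summed level was 986.4 CPM with TMM scaling and 985.5 CPM with DESeq2's size factors. Both raise 1 library and lower the other, which leaves the mean nearly unchanged, so these 2 values check little as well. No paired analysis was possible because the study has a single group. Counting incomplete splice matches for a known transcript was not run. Depth limits Kdr, Tek, Cdh5 and Flt1, whose counts of 3 to 19 reads leave a ratio interval that spans several-fold.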
